A study of Arabidopsis thaliana with 16 samples.

Results

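The genes described here are those annotated as responding to brassinosteroids, the steroid hormones of plants. They are the probe sets of the main array category that carry the Gene Ontology term for the response to brassinosteroid stimulus, without expansins, xyloglucan enzymes and SAUR proteins. The rule gave 72 probe sets for 71 loci, out of 28403 main probe sets for 26993 loci. Of the 78 probe sets with the term, 6 were left out, 2 for xyloglucan enzymes and 4 for SAUR proteins. The locus of SPL3 is represented by 2 probe sets, 1 on each strand, and the probe set of HSD1 is marked as cross-hybridising, so close relatives of HSD1 cannot be told apart from it. The annotation rests on reviewed computational analysis alone for 49 of the 72 probe sets, and on experiments for the other 23. Of the 72, 23 also carry the term for the response to auxin.

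Brassinosteroids are perceived at the plasma membrane by the receptor kinase BRI1 with its co-receptor BAK1. Without hormone, the GSK3-like kinase BIN2 phosphorylates and inactivates the transcription factors BZR1 and BES1; with hormone, BIN2 is shut off and these factors switch growth genes on and hormone synthesis genes off. In rosettes the pathway is known for promoting cell expansion and petiole elongation, together with auxin, and for opposing light-driven compact growth.

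The samples were whole rosettes of Arabidopsis thaliana, hybridised to Affymetrix gene arrays. The genotypes were sap3 KO, cml49 KO and the Col-0 wild type (WT), all of them grown for 3 weeks in a light of 80 to 100 µmol photons (a flux for each square metre and second) and then kept for 10 days in low light (LL) at 8 µmol. High light (HL) was 800 µmol, given for 60 min according to the sample titles and for 10 min according to the treatment protocol. Single replicates, 3 per group and 15 plants each, covered sap3 HL, sap3 LL, WT HL and WT LL, and 4 further arrays each held a pool of 3 replicates, 45 plants, for cml49 HL, cml49 LL, WT HL and WT LL. The labels do not give the mutant alleles or the number of lines, nor whether the pools and single arrays share plants. Values are log2 RMA signals, whose median over the main probe sets lay between 4.37 and 4.41 in every array. Of the 72 probe sets, 42 had a mean over the single arrays at or above the median of all values, 4.39.

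The targeted genes and a heat and high light marker were read first. SAP3 read 5.06, 5.28 and 3.74 in sap3 HL replicates 1 to 3, against 6.14, 3.94 and 6.48 in WT HL replicates 1 to 3. In LL it read 4.21, 6.98 and 4.05 in sap3 replicates 1 to 3, against 4.85, 4.84 and 5.14 in WT replicates 1 to 3. CML49 read 4.23 and 3.97 in the HL and LL pools labelled cml49, against 3.30 and 2.77 in the HL and LL pools labelled WT, so that the targeted gene went against the label and every difference of these pools is given for "the pools labelled cml49". HSP90.1, a chaperone induced by heat and high light, read 3.62 in WT HL replicate 2 and 3.17 in sap3 HL replicate 3, against 9.77 to 10.33 in the other HL arrays, and 11.09 in sap3 LL replicate 2, against 2.80 to 3.86 in the other LL arrays. By this marker, the light state of these 3 arrays opposes their label. For 2 of them SAP3 also went against the genotype label, since the array labelled sap3 LL replicate 2 (6.98) lay above every WT array and that labelled WT HL replicate 2 (3.94) lay below every other WT array. Neither the genotype nor the light of these arrays can be settled here, so the 3 are shown apart below and named by their label only. Of the leaf markers, RBCS1A read 12.96 to 13.40, and the probe set of LHCB1.1 read only 1.34 to 2.39. In the 9 remaining single arrays 2 of 5 leaf markers rose in HL, GOX1 by 0.83 and RCA by 0.36, and 0 of 4 root and 0 of 4 flower markers passed (limma adjusted p at or above 0.164, with 0 and 1 at an unadjusted p under 0.05). The log2 summed signal over the HL and LL arrays was 13.62 to 13.95 and 13.61 to 13.95 for the leaf markers, 7.99 to 8.83 and 8.17 to 9.31 for the root markers, and 3.87 to 4.25 and 3.84 to 4.12 for the flower markers. The part of these markers in the results below was not tested. In whole rosettes, fewer cells of a type and less RNA per cell cannot be told apart.

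In the 9 single arrays left without the 3 shown apart, many of the brassinosteroid response genes differed between HL and LL. Averaged over sap3 and WT, 31 of 72 probe sets (43.1%) were called, where 15.1% of all probe sets were called. Most of the called members were lower in HL. Among them, AT1G56220, a dormancy and auxin associated protein, was about 3 log2 units lower, the protein kinase AT4G01330 about 2 units lower, and the transcription regulator RAV1 and the auxin response factor ARF19 about 1 unit lower, while the F-box protein AUF1 and the bHLH factor PRE1 were about 1 unit higher. These are the values of 9 single arrays. The 3 arrays shown apart were left out for their light state, so these values are no independent evidence of a light effect. None of these genes was called when all 12 single arrays were fitted under their labels.

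With all 12 arrays as labelled, limma called 0 of the 72 probe sets at an adjusted p under 0.05 for HL against LL in sap3, in WT, or averaged over both genotypes, and 0% of all probe sets were called in each. At an unadjusted p under 0.05 there were 4, 6 and 10 of the 72, against 891, 1751 and 2185 of all probe sets. Without the 3 arrays shown apart, 21 of 72 (29.2%) were called in sap3, 5 higher and 16 lower, where 7.57% of all probe sets were called, 4.09% higher and 3.47% lower. In WT, 21 of 72 (29.2%) were called, 4 higher and 17 lower, where 9.13% of all probe sets were called, 4.99% higher and 4.14% lower. Averaged over sap3 and WT, 31 of 72 (43.1%) were called, where 15.1% of all probe sets were called. Most of these calls were lower in HL. In the averaged comparison 24 of 72 (33.3%) fell, against 7.36% of all probe sets, and 7 of 72 (9.72%) rose, against 7.76% of all probe sets. The median HL minus LL difference was -0.18 over the 72 probe sets and -0.02 over all probe sets. The 3 arrays were recognised by light-responsive signal in these data, so the calls of the 9 arrays describe the arrays that remain and are not independent of that choice. Without WT HL replicate 1 the count in WT was 11, and without WT HL replicate 3 it was 10.

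Of the 72 probe sets, 17 were called in both sap3 and WT, 4 in sap3 alone, 4 in WT alone and 47 in neither. Of all probe sets, 7.57% were called in sap3 and 9.13% in WT. The share of all probe sets called in both was not counted, so the 17 cannot be set against it. A call in 1 genotype alone does not show that the genotypes differ, and the difference itself gave 0 calls, as described further on. Over the 4 single and 2 pooled HL arrays against the 5 single and 2 pooled LL arrays, the values did not overlap for 20 of 72 probe sets (27.8%), against 12.3% of all probe sets. Of these, 17 (23.6%) lay lower in HL, against 5.93% of all probe sets, and 3 (4.17%) lay higher, against 6.33%. The 3 that lay higher were AUF1, AT3G17120 and SHY2.

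**Figure D1:**
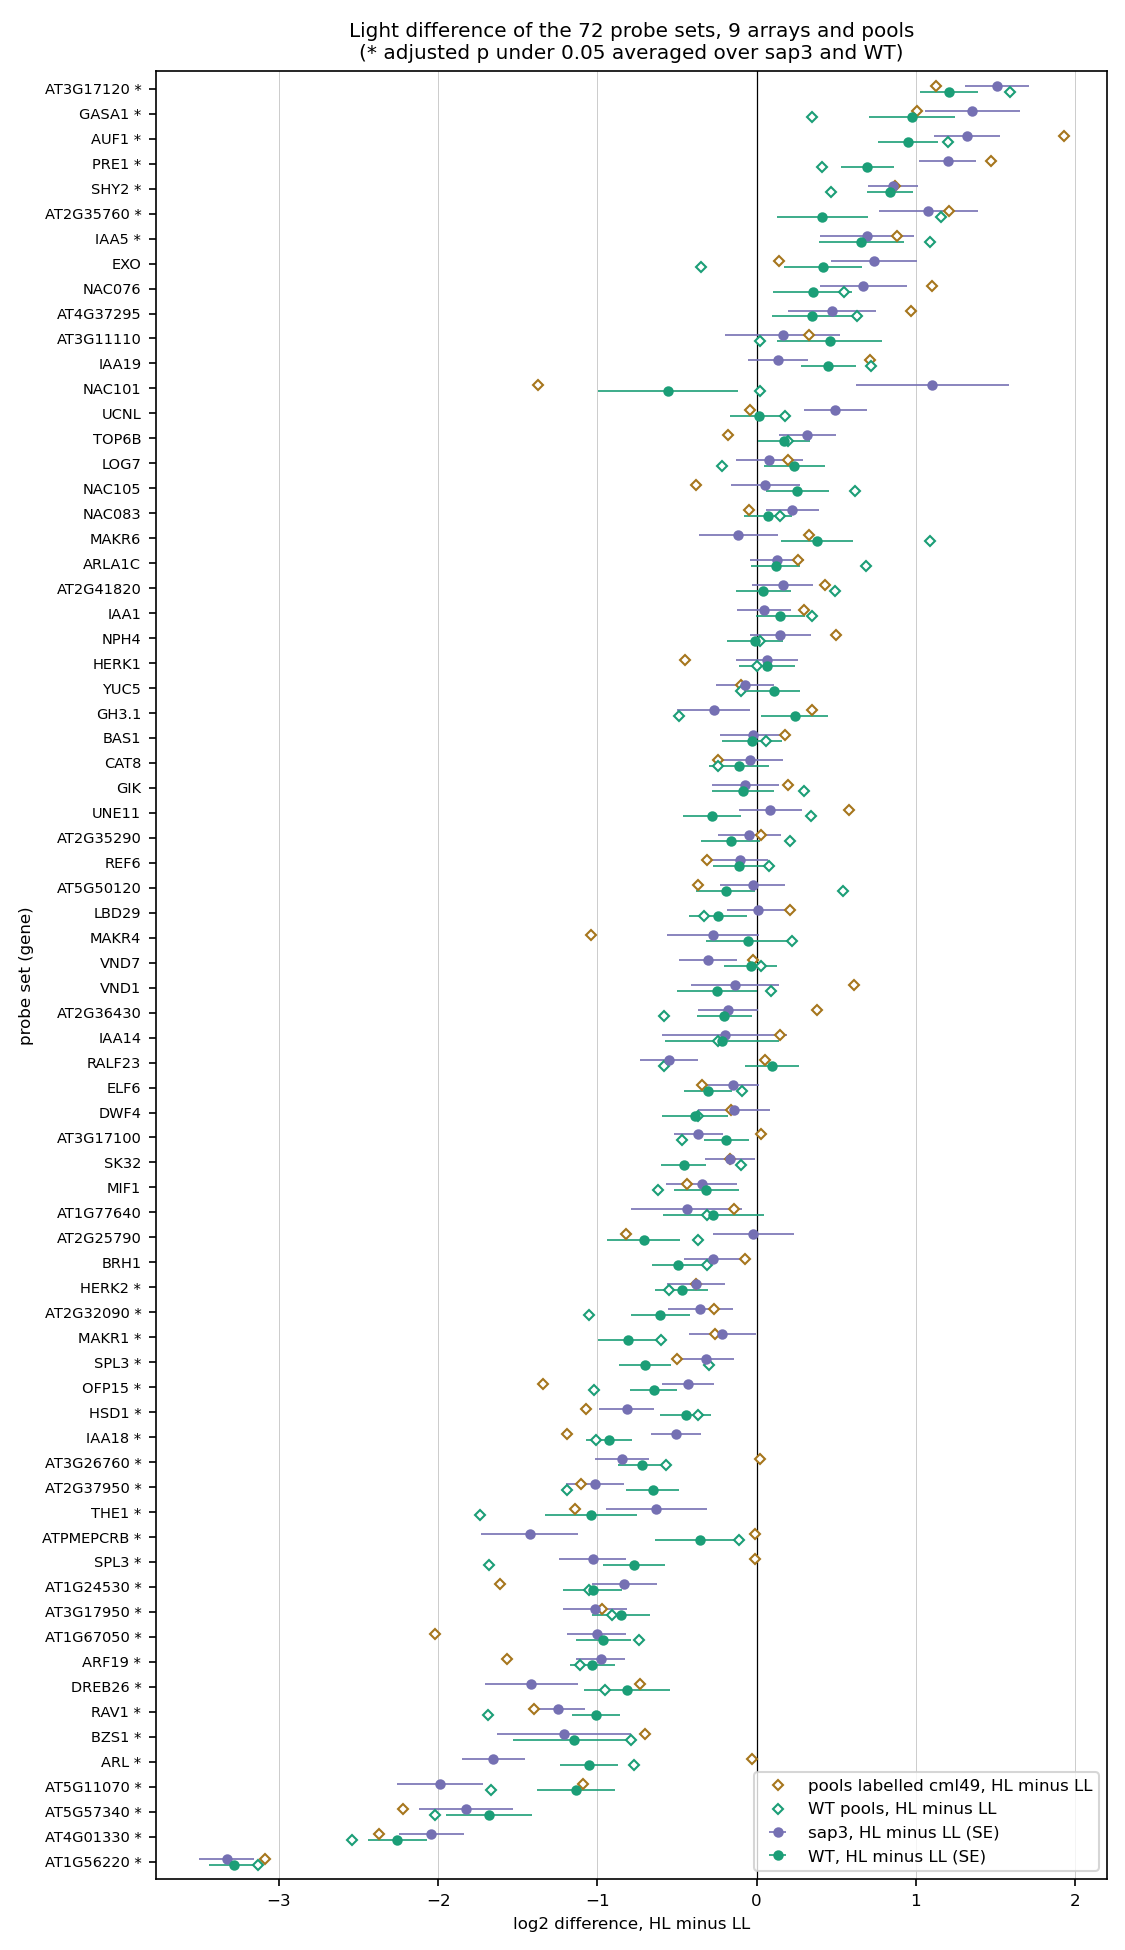
HL minus LL differences in log2 units for the 72 probe sets, 1 row each, ordered by the difference averaged over sap3 and WT in the 9 arrays. Circles are sap3 and WT single arrays with SE bars, open diamonds the differences between the pools labelled cml49 or WT, and an asterisk marks the 31 probe sets called by limma, 24 of which lie to the left of zero.

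AT1G56220, annotated as a dormancy and auxin associated protein (chromosome 1, 21043348 to 21044738, plus strand in the array annotation), had the largest difference of the 72 in the 9 arrays and in both pairs of pools. It read 6.12 and 6.42 in sap3 HL replicates 1 and 2, 6.26 and 6.38 in WT HL replicates 1 and 3, and 6.34 and 6.50 in the HL pools labelled cml49 and WT. In LL, AT1G56220 read 9.58 and 9.62 in sap3 replicates 1 and 3, 9.48, 9.79 and 9.54 in WT replicates 1 to 3, and 9.43 and 9.63 in the pools labelled cml49 and WT. No HL array came near the lowest LL array, and replicates of a group differed little. For AT1G56220 the arrays shown apart read 9.77 in that labelled WT HL replicate 2, 9.52 in that labelled sap3 HL replicate 3 and 6.54 in that labelled sap3 LL replicate 2, each beside the arrays of the opposite label. AT1G56220 differed by -3.31 ± 0.12 (SE; limma adjusted p = 1.36e-07) in the 9 arrays and -1.68 ± 0.79 (limma adjusted p = 0.619) in the 12, and by -3.09 and -3.13 in the pools labelled cml49 and WT.

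AT4G01330, a member of the protein kinase family (chromosome 4, 550349 to 553016, plus strand), read 5.12 and 5.53 in sap3 HL replicates 1 and 2, 5.22 and 4.94 in WT HL replicates 1 and 3, and 5.47 and 5.23 in the HL pools labelled cml49 and WT. LL values of AT4G01330 were 7.30 and 7.44 in sap3 replicates 1 and 3, 7.10, 7.52 and 7.39 in WT replicates 1 to 3, and 7.84 and 7.77 in the pools labelled cml49 and WT. HL and LL were separated by more than 1 log2 unit at their nearest. For AT4G01330 the arrays shown apart read 7.35 in that labelled WT HL replicate 2, 7.57 in that labelled sap3 HL replicate 3 and 5.70 in that labelled sap3 LL replicate 2. AT4G01330 differed by -2.15 ± 0.14 (SE; limma adjusted p = 4.23e-06) in the 9 arrays and -1.12 ± 0.51 (limma adjusted p = 0.619) in the 12, and by -2.37 and -2.54 in the pools labelled cml49 and WT. In the contrasts for each genotype from the same fit, AT4G01330 fell by 2.04 in sap3 and by 2.26 in WT.

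AT5G57340 encodes a protein of unknown function (chromosome 5, 23226086 to 23229282, plus strand). Its signal was 3.36 and 4.23 in sap3 HL replicates 1 and 2, 4.20 and 3.92 in WT HL replicates 1 and 3, and 3.86 and 3.77 in the HL pools labelled cml49 and WT. In LL, AT5G57340 read 5.82 and 5.42 in sap3 replicates 1 and 3, 5.78, 6.03 and 5.41 in WT replicates 1 to 3, and 6.08 and 5.79 in the pools labelled cml49 and WT. All HL arrays lay below all LL arrays, with sap3 HL replicate 1 the lowest of them. For AT5G57340 the arrays shown apart read 5.53 in that labelled WT HL replicate 2, 5.55 in that labelled sap3 HL replicate 3 and 3.97 in that labelled sap3 LL replicate 2. AT5G57340 differed by -1.75 ± 0.20 (SE; limma adjusted p = 0.000201) in the 9 arrays and -0.94 ± 0.42 (limma adjusted p = 0.619) in the 12, and by -2.22 and -2.02 in the pools labelled cml49 and WT.

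AT5G11070, also a protein of unknown function (chromosome 5, 3516217 to 3516995, minus strand), read 3.62 and 4.20 in sap3 HL replicates 1 and 2, 4.20 and 4.83 in WT HL replicates 1 and 3, and 4.81 and 4.20 in the HL pools labelled cml49 and WT. For LL, AT5G11070 read 5.93 and 5.87 in sap3 replicates 1 and 3, 5.85, 5.31 and 5.79 in WT replicates 1 to 3, and 5.90 and 5.87 in the pools labelled cml49 and WT. The HL arrays were spread over more than 1 unit and still lay below every LL array. For AT5G11070 the arrays shown apart read 5.61 in that labelled WT HL replicate 2, 5.05 in that labelled sap3 HL replicate 3 and 4.66 in that labelled sap3 LL replicate 2, so the array labelled sap3 HL replicate 3 lay below every LL array here. AT5G11070 differed by -1.56 ± 0.18 (SE; limma adjusted p = 0.000234) in the 9 arrays and -0.98 ± 0.31 (limma adjusted p = 0.619) in the 12, and by -1.09 and -1.67 in the pools labelled cml49 and WT.

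**Figure D2:**
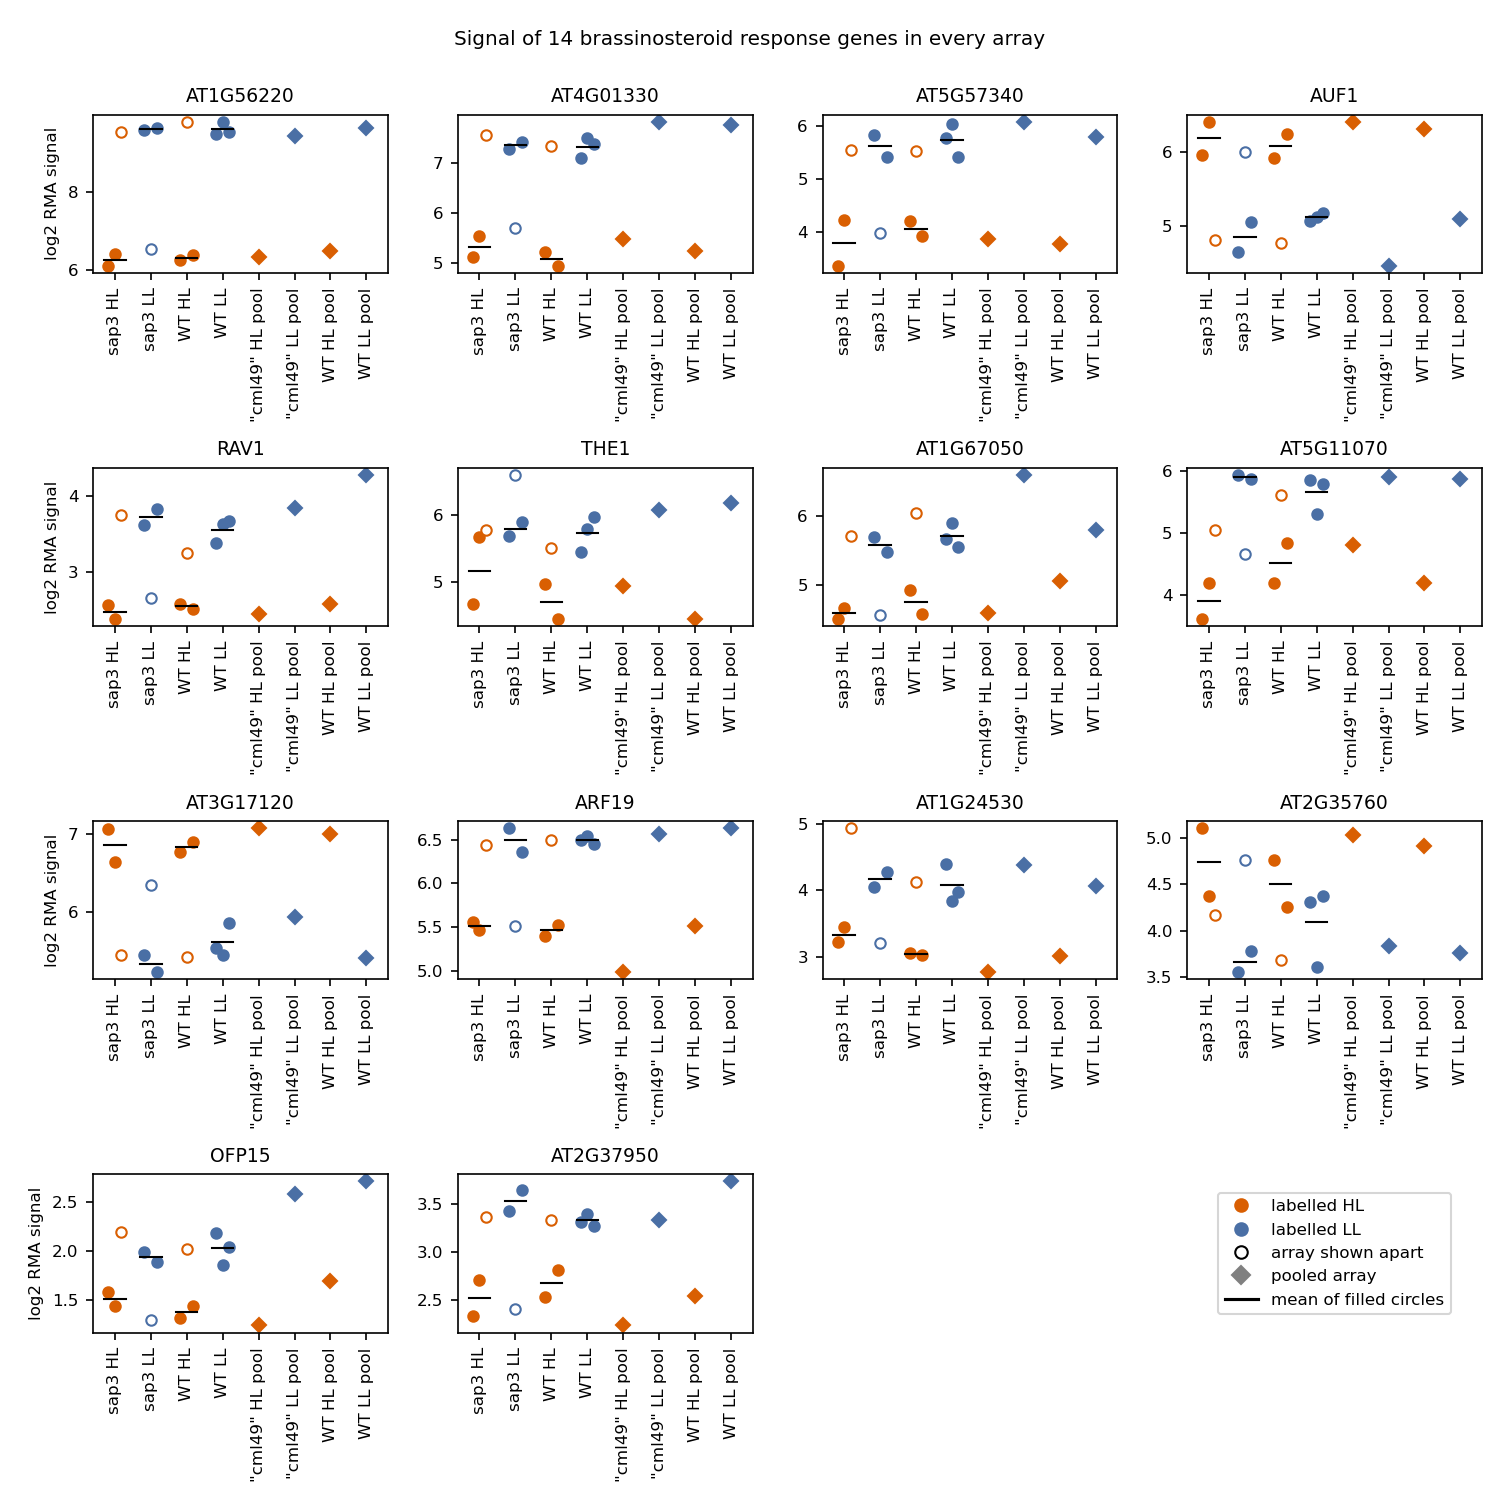
Log2 RMA signal of 14 brassinosteroid response genes in every array, 1 panel per gene, grouped by genotype and light; pools are diamonds, the pools labelled cml49 are in quotation marks, and open circles are the 3 arrays shown apart. In AT1G56220 the filled HL circles lie near 6 and the filled LL circles near 9.6, while the open circles sit with the opposite light label.

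The counts by role that follow are for the averaged comparison of the 9 arrays, in which 15.1% of all probe sets were called, 7.76% higher and 7.36% lower. Of the 10 genes of brassinosteroid metabolism and signalling, 1 rose, 2 fell and 7 were not called, and 5 of 10 were called with a prior that depends on the mean signal. PRE1, an atypical bHLH protein that promotes cell elongation, rose (0.95 ± 0.12, limma adjusted p = 0.000449). PRE1 read 7.22 and 7.10 in sap3 HL replicates 1 and 2, 7.18 and 6.75 in WT HL replicates 1 and 3, and 7.41 and 7.27 in the HL pools labelled cml49 and WT. Its LL values were 5.94 and 5.98 in sap3 replicates 1 and 3, 6.11, 6.33 and 6.37 in WT replicates 1 to 3, and 5.94 and 6.86 in the pools labelled cml49 and WT, and the WT LL pool, the highest of them, lay above WT HL replicate 3. BZS1, a B-box zinc finger protein that the hormone represses and that restrains elongation, fell (-1.18 ± 0.29, limma adjusted p = 0.0191). BZS1 read 2.51 and 2.73 in sap3 HL replicates 1 and 2, 2.43 and 2.51 in WT HL replicates 1 and 3, and 2.90 and 2.66 in the HL pools labelled cml49 and WT. Its LL signal was 4.54 and 3.12 in sap3 replicates 1 and 3, 3.25, 3.38 and 4.22 in WT replicates 1 to 3, and 3.60 and 3.45 in the pools labelled cml49 and WT, so all HL arrays lay below all LL arrays, with a wide spread among the LL arrays. BZS1 lost its call without sap3 HL replicate 1 (limma adjusted p = 0.0725), WT HL replicate 1 (0.0624) or WT HL replicate 3 (0.0562), and with a replicate block (0.0526). HSD1, a hydroxysteroid dehydrogenase of seed oil bodies, fell (-0.63 ± 0.12, limma adjusted p = 0.00454), and its probe set cross-hybridises. All HSD1 values were low and lay under the array median. Of the BZS1 values, only that of sap3 LL replicate 1 lay above it.

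Neither of the hormone metabolism genes DWF4 and BAS1 was called. DWF4, the cytochrome P450 of the rate-limiting step of brassinosteroid synthesis, differed by -0.26 ± 0.15, limma adjusted p = 0.32. BAS1, a cytochrome P450 that inactivates the hormone, differed by -0.03 ± 0.14, limma adjusted p = 0.938. SK32, a GSK3-like kinase related to BIN2, differed by -0.31 ± 0.11, limma adjusted p = 0.0823, and the RING protein BRH1, whose transcript the hormone lowers, by -0.38 ± 0.12, limma adjusted p = 0.0637. The histone demethylases REF6 and ELF6, which act with BES1, differed by -0.11 and -0.23, and the bHLH protein AT3G17100 by -0.28, with limma adjusted p between 0.12 and 0.649.

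The 3 receptor kinases of the THE1 and HERK group, which watch the cell wall and are needed for full cell elongation, gave 2 calls, both lower in HL, against 15.1% called of all probe sets. Fits that left out 1 array gave 0 to 2 of these calls, and array weights or a replicate block gave 1. THE1 (chromosome 5, 22077092 to 22079880, minus strand) read 4.66 and 5.67 in sap3 HL replicates 1 and 2, 4.96 and 4.44 in WT HL replicates 1 and 3, and 4.94 and 4.44 in the HL pools labelled cml49 and WT. In LL, THE1 read 5.69 and 5.90 in sap3 replicates 1 and 3, 5.45, 5.79 and 5.98 in WT replicates 1 to 3, and 6.08 and 6.18 in the pools labelled cml49 and WT. The light groups overlapped, since sap3 HL replicate 2 lay above WT LL replicate 1. For THE1 the arrays shown apart read 5.51 in that labelled WT HL replicate 2, 5.78 in that labelled sap3 HL replicate 3 and 6.61 in that labelled sap3 LL replicate 2, and the last of these was the highest array of all. THE1 differed by -0.83 ± 0.21 (SE; limma adjusted p = 0.025) in the 9 arrays and -0.73 ± 0.25 (limma adjusted p = 0.619) in the 12, and by -1.14 and -1.74 in the pools labelled cml49 and WT. THE1 lost its call in 6 of 9 fits that left out 1 array, with limma adjusted p of 0.105 without WT HL replicate 3, 0.081 without sap3 LL replicate 3, 0.073 without sap3 HL replicate 1 and 0.0513 to 0.0535 without sap3 LL replicate 1, WT LL replicate 2 or WT LL replicate 3. HERK2 differed by -0.42 ± 0.12, limma adjusted p = 0.0444, and lost its call in 7 of 9 fits that left out 1 array, all except those without sap3 HL replicate 2 or WT HL replicate 1, with a highest limma adjusted p of 0.176 without WT HL replicate 3, and also with a replicate block (0.0751) or array weights (0.0533). HERK1 was not called (0.07 ± 0.13, limma adjusted p = 0.818).

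Among the 7 other kinases and kinase regulators, 0 rose and 2 fell, AT4G01330 and MAKR1, against 7.36% of all probe sets that fell. MAKR1, a membrane-associated kinase regulator related to the BRI1 inhibitor BKI1, differed by -0.51 ± 0.14, limma adjusted p = 0.0369. It lost its call in 7 of 9 fits that left out 1 array, all except those without sap3 LL replicate 3 or WT LL replicate 2, with a highest limma adjusted p of 0.126 without WT HL replicate 3. Its relatives MAKR4 and MAKR6 were not called (-0.16 and 0.13), nor were the receptor-like kinases AT2G25790 and AT2G41820 (-0.36 and 0.10) or the AGC kinase UCNL (0.25).

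Of the 12 genes of auxin response and synthesis, 3 rose, 2 fell and 7 were not called, where 15.1% of all probe sets were called. ARF19, an auxin response factor that activates auxin-responsive genes (chromosome 1, 6628068 to 6633087, minus strand), read 5.56 and 5.47 in sap3 HL replicates 1 and 2, 5.40 and 5.53 in WT HL replicates 1 and 3, and 4.99 and 5.52 in the HL pools labelled cml49 and WT. In LL, ARF19 read 6.63 and 6.36 in sap3 replicates 1 and 3, 6.50, 6.54 and 6.45 in WT replicates 1 to 3, and 6.56 and 6.63 in the pools labelled cml49 and WT. The HL single arrays lay close together, and all HL arrays lay below all LL arrays. For ARF19 the arrays shown apart read 6.49 in that labelled WT HL replicate 2, 6.44 in that labelled sap3 HL replicate 3 and 5.52 in that labelled sap3 LL replicate 2. ARF19 differed by -1.01 ± 0.11 (SE; limma adjusted p = 0.000109) in the 9 arrays and -0.52 ± 0.25 (limma adjusted p = 0.619) in the 12, and by -1.57 and -1.11 in the pools labelled cml49 and WT. Its close relative NPH4, also called ARF7, was not called (0.07 ± 0.13, limma adjusted p = 0.804).

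AUF1, an F-box protein whose transcript auxin raises (chromosome 1, 29387795 to 29389112, plus strand), read 5.95 and 6.40 in sap3 HL replicates 1 and 2, 5.92 and 6.23 in WT HL replicates 1 and 3, and 6.40 and 6.30 in the HL pools labelled cml49 and WT. In LL, AUF1 read 4.65 and 5.06 in sap3 replicates 1 and 3, 5.07, 5.12 and 5.18 in WT replicates 1 to 3, and 4.47 and 5.10 in the pools labelled cml49 and WT. The LL pool labelled cml49 was the lowest array, and no LL array reached an HL array. For AUF1 the arrays shown apart read 4.77 in that labelled WT HL replicate 2, 4.81 in that labelled sap3 HL replicate 3 and 6.0 in that labelled sap3 LL replicate 2. AUF1 differed by 1.14 ± 0.14 (SE; limma adjusted p = 0.000324) in the 9 arrays and 0.50 ± 0.32 (limma adjusted p = 0.648) in the 12, and by 1.93 and 1.20 in the pools labelled cml49 and WT. Of the Aux/IAA proteins, the repressors of auxin-responsive transcription, SHY2 (IAA3) rose (0.85 ± 0.11, limma adjusted p = 0.00037) and IAA18 fell (-0.72 ± 0.11, limma adjusted p = 0.00107).

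IAA5 also rose (0.68 ± 0.20, limma adjusted p = 0.046), but lost its call in 8 of 9 fits that left out 1 array, all except the one without sap3 HL replicate 2, with a highest limma adjusted p of 0.14 without sap3 LL replicate 3. Without sap3 HL replicate 1 its difference was 0.40, over 1.5 times smaller. IAA1, IAA14 and IAA19 were not called (0.10, -0.21 and 0.29), nor were the auxin-conjugating enzyme GH3.1 (-0.01), the auxin synthesis enzyme YUC5 (0.02) or the LOB domain factor LBD29 (-0.12). By annotation, 6 of 23 probe sets that also carry the auxin term were called, 3 higher and 3 lower, and 25 of 49 without it, 4 higher and 21 lower, where 15.1% of all probe sets were called. Whether these shares differ was not tested.

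The transcription regulators outside these groups were lower in HL where they were called, 5 of 8 probe sets, and 0 of 8 rose, where 7.36% of all probe sets fell. Without dim probe sets 4 of the 8 remained, of which 2 were called. RAV1, an AP2 and B3 domain repressor of growth whose transcript brassinosteroids lower (chromosome 1, 4542168 to 4543742, plus strand), read 2.57 and 2.39 in sap3 HL replicates 1 and 2, 2.59 and 2.52 in WT HL replicates 1 and 3, and 2.45 and 2.59 in the HL pools labelled cml49 and WT. In LL, RAV1 read 3.62 and 3.83 in sap3 replicates 1 and 3, 3.39, 3.63 and 3.67 in WT replicates 1 to 3, and 3.85 and 4.28 in the pools labelled cml49 and WT. The HL arrays lay close together, and every LL array lay above them. All RAV1 values lay under the array median. For RAV1 the arrays shown apart read 3.25 in that labelled WT HL replicate 2, 3.76 in that labelled sap3 HL replicate 3 and 2.67 in that labelled sap3 LL replicate 2. RAV1 differed by -1.13 ± 0.11 (SE; limma adjusted p = 7.97e-05) in the 9 arrays and -0.62 ± 0.26 (limma adjusted p = 0.619) in the 12, and by -1.40 and -1.69 in the pools labelled cml49 and WT.

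OFP15, of the OVATE family of transcriptional repressors (chromosome 2, 15135572 to 15136749, minus strand), read 1.58 and 1.44 in sap3 HL replicates 1 and 2, 1.32 and 1.44 in WT HL replicates 1 and 3, and 1.24 and 1.69 in the HL pools labelled cml49 and WT. In LL, OFP15 read 1.99 and 1.89 in sap3 replicates 1 and 3, 2.18, 1.86 and 2.04 in WT replicates 1 to 3, and 2.58 and 2.71 in the pools labelled cml49 and WT. All values were low and lay under the array median, and HL and LL did not overlap. For OFP15 the arrays shown apart read 2.02 in that labelled WT HL replicate 2, 2.19 in that labelled sap3 HL replicate 3 and 1.30 in that labelled sap3 LL replicate 2. OFP15 differed by -0.54 ± 0.11 (SE; limma adjusted p = 0.00754) in the 9 arrays and -0.21 ± 0.18 (limma adjusted p = 0.722) in the 12, and by -1.34 and -1.02 in the pools labelled cml49 and WT. The ERF factor DREB26 fell (-1.11 ± 0.20, limma adjusted p = 0.00347). It read 3.12 and 3.92 in sap3 HL replicates 1 and 2, 3.02 and 2.98 in WT HL replicates 1 and 3, and 2.92 and 3.09 in the HL pools labelled cml49 and WT, and in LL 4.53 and 5.34 in sap3 replicates 1 and 3, 3.73, 3.77 and 3.94 in WT replicates 1 to 3, and 3.65 and 4.04 in the pools labelled cml49 and WT. For DREB26 the arrays shown apart read 2.85 in that labelled WT HL replicate 2, 5.84 in that labelled sap3 HL replicate 3 and 4.47 in that labelled sap3 LL replicate 2, and that labelled sap3 HL replicate 3 was the highest of all arrays.

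SPL3, a squamosa promoter-binding factor that promotes the change to the adult phase and flowering, has 2 probe sets at nearly the same place on chromosome 2, 14305001 to 14306072 on the plus strand and 14305008 to 14306053 on the minus strand. The plus-strand probe set fell by 0.90 ± 0.14 (SE, limma adjusted p = 0.0017) and the minus-strand probe set by 0.51 ± 0.12 (limma adjusted p = 0.0176). The minus-strand call was lost without sap3 HL replicate 1 (limma adjusted p = 0.0691), sap3 LL replicate 3 (0.0584) or WT HL replicate 3 (0.0774). The plus-strand probe set read 5.74 and 4.77 in the HL pools labelled cml49 and WT, against 5.75 and 6.45 in the LL pools labelled cml49 and WT, so it differed by -0.01 and -1.68. The mini zinc finger protein MIF1, the ERF factor AT1G77640 and the AT-hook protein GIK were not called (-0.33, -0.36 and -0.08).

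The 6 NAC factors, among them the xylem vessel regulators VND1 and VND7, gave 0 calls at a limma adjusted p under 0.05, and 1 of 6 was under 0.05 unadjusted. Their differences ran between -0.19 for VND1 and 0.51 for NAC076. NAC101 had a wide spread, with 4.05 and 2.59 in sap3 HL replicates 1 and 2 and 2.73 and 1.70 in sap3 LL replicates 1 and 3.

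Of the 8 growth, peptide and wall genes, 1 rose and 2 fell, where 15.1% of all probe sets were called. GASA1, a small cysteine-rich peptide induced by gibberellin, rose (1.17 ± 0.20, limma adjusted p = 0.00283). It read 6.76 and 7.67 in sap3 HL replicates 1 and 2, 6.28 and 6.94 in WT HL replicates 1 and 3, and 6.50 and 5.70 in the HL pools labelled cml49 and WT. In LL, GASA1 read 5.74 and 5.98 in sap3 replicates 1 and 3, 5.57, 5.78 and 5.55 in WT replicates 1 to 3, and 5.49 and 5.35 in the pools labelled cml49 and WT. The HL pool labelled WT lay below the sap3 LL arrays, so the groups overlapped. For GASA1 the arrays shown apart read 5.62 in that labelled WT HL replicate 2, 5.85 in that labelled sap3 HL replicate 3 and 8.35 in that labelled sap3 LL replicate 2, and the last of these was the highest array of all. EXO, an extracellular protein needed for brassinosteroid-driven leaf growth, followed the same order at the top, with 6.24 in the array labelled sap3 LL replicate 2 and 4.99 in sap3 HL replicate 2, against 3.46 to 4.20 in the other 8 of the 9 single arrays. EXO was not called (0.58 ± 0.18, limma adjusted p = 0.0616).

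ARL, an ARGOS-like protein that raises cell size downstream of brassinosteroids, fell (-1.35 ± 0.13, limma adjusted p = 7.46e-05). It read 5.14 and 4.92 in sap3 HL replicates 1 and 2, 5.25 and 5.12 in WT HL replicates 1 and 3, and 5.14 and 4.73 in the HL pools labelled cml49 and WT. In LL, ARL read 6.42 and 6.95 in sap3 replicates 1 and 3, 6.20, 6.37 and 6.14 in WT replicates 1 to 3, and 5.17 and 5.50 in the pools labelled cml49 and WT. The single arrays were separated by light, while the LL pools lay close to the HL arrays and ARL differed by -0.03 and -0.77 in the pools labelled cml49 and WT. The pectinesterase ATPMEPCRB fell (-0.89 ± 0.21, limma adjusted p = 0.0146). It differed by -1.43 in sap3 and by -0.36 in WT, the second not called (limma adjusted p = 0.545). The pools hardly showed this fall, since ATPMEPCRB differed by -0.01 and -0.11 in the pools labelled cml49 and WT. ATPMEPCRB read 4.87 in sap3 LL replicate 3 and 3.70 in sap3 LL replicate 1, against 3.02 to 3.17 in WT LL, and without sap3 LL replicate 3 its averaged difference was -0.60. The call was lost without sap3 HL replicate 2 (limma adjusted p = 0.0541) or WT HL replicate 1 (0.0511). RALF23, a peptide whose transcript brassinosteroids lower, was not called (-0.23 ± 0.12, limma adjusted p = 0.288), nor was LOG7, which activates cytokinins (0.16 ± 0.14, limma adjusted p = 0.547). TOP6B, a subunit of a topoisomerase needed for endoreduplication, and UNE11 differed by 0.25 and -0.10 and were not called.

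The 18 remaining genes, most of them without a described part in the pathway, held 11 calls, 2 higher and 9 lower, where 15.1% of all probe sets were called. They include AT1G56220, AT5G57340 and AT5G11070. AT3G17120, a protein of unknown function (chromosome 3, 5841096 to 5843485, plus strand), read 7.06 and 6.64 in sap3 HL replicates 1 and 2, 6.76 and 6.89 in WT HL replicates 1 and 3, and 7.07 and 7.0 in the HL pools labelled cml49 and WT. In LL, AT3G17120 read 5.45 and 5.23 in sap3 replicates 1 and 3, 5.54, 5.45 and 5.86 in WT replicates 1 to 3, and 5.94 and 5.41 in the pools labelled cml49 and WT. All HL arrays lay above all LL arrays. For AT3G17120 the arrays shown apart read 5.42 in that labelled WT HL replicate 2, 5.45 in that labelled sap3 HL replicate 3 and 6.35 in that labelled sap3 LL replicate 2. AT3G17120 differed by 1.36 ± 0.14 (SE; limma adjusted p = 8.05e-05) in the 9 arrays and 0.72 ± 0.33 (limma adjusted p = 0.619) in the 12, and by 1.13 and 1.59 in the pools labelled cml49 and WT.

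AT2G35760, a CASP-like membrane protein (chromosome 2, 15031923 to 15033307, plus strand), read 5.11 and 4.38 in sap3 HL replicates 1 and 2, 4.76 and 4.26 in WT HL replicates 1 and 3, and 5.04 and 4.92 in the HL pools labelled cml49 and WT. In LL, AT2G35760 read 3.55 and 3.78 in sap3 replicates 1 and 3, 4.31, 3.61 and 4.37 in WT replicates 1 to 3, and 3.83 and 3.76 in the pools labelled cml49 and WT. The groups overlapped, since WT HL replicate 3 lay below WT LL replicates 1 and 3. For AT2G35760 the arrays shown apart read 3.68 in that labelled WT HL replicate 2, 4.17 in that labelled sap3 HL replicate 3 and 4.77 in that labelled sap3 LL replicate 2. AT2G35760 differed by 0.75 ± 0.21 (SE; limma adjusted p = 0.0382) in the 9 arrays and 0.33 ± 0.27 (limma adjusted p = 0.714) in the 12, and by 1.21 and 1.16 in the pools labelled cml49 and WT. It lost its call in 5 of 9 fits that left out 1 array, with limma adjusted p of 0.145 without sap3 HL replicate 1, 0.143 without WT HL replicate 1, 0.114 without sap3 LL replicate 1, 0.0688 without sap3 LL replicate 3 and 0.0587 without WT LL replicate 2.

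AT1G67050, a protein of unknown function (chromosome 1, 25028627 to 25029788, minus strand), read 4.50 and 4.66 in sap3 HL replicates 1 and 2, 4.92 and 4.57 in WT HL replicates 1 and 3, and 4.58 and 5.05 in the HL pools labelled cml49 and WT. In LL, AT1G67050 read 5.69 and 5.48 in sap3 replicates 1 and 3, 5.67, 5.90 and 5.55 in WT replicates 1 to 3, and 6.60 and 5.79 in the pools labelled cml49 and WT. The LL pool labelled cml49 was the highest array, and every HL array lay below every LL array. For AT1G67050 the arrays shown apart read 6.04 in that labelled WT HL replicate 2, 5.71 in that labelled sap3 HL replicate 3 and 4.56 in that labelled sap3 LL replicate 2. AT1G67050 differed by -0.98 ± 0.13 (SE; limma adjusted p = 0.000424) in the 9 arrays and -0.41 ± 0.29 (limma adjusted p = 0.676) in the 12, and by -2.02 and -0.74 in the pools labelled cml49 and WT.

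AT1G24530, a WD40 repeat protein (chromosome 1, 8693227 to 8694705, plus strand), read 3.22 and 3.45 in sap3 HL replicates 1 and 2, 3.06 and 3.03 in WT HL replicates 1 and 3, and 2.77 and 3.01 in the HL pools labelled cml49 and WT. In LL, AT1G24530 read 4.05 and 4.28 in sap3 replicates 1 and 3, 4.40, 3.84 and 3.98 in WT replicates 1 to 3, and 4.38 and 4.06 in the pools labelled cml49 and WT. HL and LL did not overlap. For AT1G24530 the arrays shown apart read 4.12 in that labelled WT HL replicate 2, 4.93 in that labelled sap3 HL replicate 3 and 3.20 in that labelled sap3 LL replicate 2, with that labelled sap3 HL replicate 3 the highest of all arrays. AT1G24530 differed by -0.93 ± 0.14 (SE; limma adjusted p = 0.00107) in the 9 arrays and -0.32 ± 0.32 (limma adjusted p = 0.765) in the 12, and by -1.61 and -1.05 in the pools labelled cml49 and WT.

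AT2G37950, a RING zinc finger protein (chromosome 2, 15882488 to 15883979, minus strand), read 2.34 and 2.71 in sap3 HL replicates 1 and 2, 2.54 and 2.82 in WT HL replicates 1 and 3, and 2.24 and 2.55 in the HL pools labelled cml49 and WT. In LL, AT2G37950 read 3.43 and 3.65 in sap3 replicates 1 and 3, 3.32, 3.40 and 3.28 in WT replicates 1 to 3, and 3.34 and 3.74 in the pools labelled cml49 and WT. Again no HL array overlapped with an LL array, and all values lay under the array median. For AT2G37950 the arrays shown apart read 3.34 in that labelled WT HL replicate 2, 3.37 in that labelled sap3 HL replicate 3 and 2.41 in that labelled sap3 LL replicate 2. AT2G37950 differed by -0.83 ± 0.12 (SE; limma adjusted p = 0.00103) in the 9 arrays and -0.40 ± 0.24 (limma adjusted p = 0.627) in the 12, and by -1.10 and -1.19 in the pools labelled cml49 and WT. A further 3 genes of unknown or enzymatic function fell: AT3G17950 (-0.93 ± 0.14, limma adjusted p = 0.000936), the dehydrogenase AT3G26760 (-0.78 ± 0.11, limma adjusted p = 0.000911) and the glyoxalase AT2G32090 (-0.48 ± 0.14, limma adjusted p = 0.042). AT3G26760 differed by 0.02 and -0.57 in the pools labelled cml49 and WT, and its HL and LL arrays overlapped once the pools were included. AT2G32090 lost its call in 7 of 9 fits that left out 1 array, all except those without sap3 HL replicate 2 or sap3 LL replicate 1. Its highest limma adjusted p was 0.149, without sap3 HL replicate 1, and the call was also lost with a replicate block (0.0547).

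The other 7 of these 18 genes were not called, with differences between -0.19 for AT2G36430 and 0.41 for AT4G37295: the amino acid transporter CAT8, the small GTPase ARLA1C, the RING protein AT3G11110, the WD40 protein AT5G50120, AT2G35290, AT2G36430 and AT4G37295.

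By evidence for the annotation, 10 of 23 probe sets supported by experiments were called, 2 higher and 8 lower, and 21 of 49 supported by reviewed computational analysis alone, 5 higher and 16 lower, where 15.1% of all probe sets were called, 7.76% higher and 7.36% lower. The median differences were -0.26 and -0.11.

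The arrays shown apart were set against the HL and LL means of the genotype on their label, taken over the remaining single arrays. Their genotype is not settled, so the counts depend on that label. Over the 31 called probe sets, the array labelled WT HL replicate 2 lay nearer to the LL mean for 29 and nearer to the HL mean for 2, IAA5 and DREB26. For that labelled sap3 HL replicate 3 the counts were 30 and 1, the exception being the minus-strand probe set of SPL3. For that labelled sap3 LL replicate 2, 27 lay nearer to HL and 4 nearer to LL, namely AT2G32090, MAKR1, DREB26 and THE1. These arrays were set apart for their light state, so the counts describe them and test nothing.

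The pools, 1 array per group, gave differences with no replicate check and no p-value. Between the pools labelled cml49, 21 of 72 (29.2%) differed by at least 1 between HL and LL, 6 higher and 15 lower, where 6.36% of all probe sets did, 3.45% higher and 2.9% lower. Between the WT pools, 18 of 72 (25%) did, 5 higher and 13 lower, where 7.75% of all probe sets did, 4.39% higher and 3.36% lower. The pools were not used to recognise the 3 arrays, but the 14 genes given in every array were chosen by their pool differences, which are a description for those genes. Outside the 14, GASA1 and PRE1 were higher by 1.01 and 1.47 between the pools labelled cml49, and NAC076 read 3.91 in the HL and 2.81 in the LL pool. In the same pair NAC101, HSD1 and MAKR4 were lower, by -1.37, -1.07 and -1.04. Between the WT pools IAA5 and MAKR6 were higher by 1.09 each, and the plus-strand probe set of SPL3 and AT2G32090 were lower, by -1.68 and -1.05. IAA18 was lower between both pairs, with -1.19 and -1.01 in the pools labelled cml49 and WT. These are all the members outside the 14 at or past 1.

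Between genotypes the brassinosteroid response genes gave 0 calls. For sap3 against WT, limma called 0 of 72 at an adjusted p under 0.05 in LL and 0 of 72 in HL with 12 arrays, among them the 2 in which SAP3 goes against the label, where 0% of all probe sets were called in each. At an unadjusted p under 0.05 there were 3 of 72 in LL and 3 in HL, against 1283 and 812 of all probe sets. In the 9 arrays 0 of 72 were called in LL, where 0% of all probe sets were called, and 0 in HL, where 0.00352% were, with 5 and 4 at an unadjusted p under 0.05, against 1706 and 1272 of all probe sets. The sap3 minus WT differences of the 9 arrays ran between -0.53 and 1.21 in LL, with a smallest limma adjusted p of 0.569, and between -0.61 and 1.14 in HL, with a smallest of 0.996. The highest in LL, picked out after its value was seen, was ATPMEPCRB.

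The light response itself was also set against each other between genotypes. The HL minus LL difference of sap3 minus that of WT gave 0 of 72 calls with 12 arrays and 0 of 72 with 9 arrays, where 0% of all probe sets were called in both, and 3 and 5 of 72 had an unadjusted p under 0.05, against 744 and 1192 of all probe sets. These misses do not show that sap3 and WT respond alike. In the 9 arrays the difference of the light response ran between -1.07 for ATPMEPCRB and 1.66 for NAC101. For NAC101 the HL minus LL differences were 1.105 in sap3 and -0.555 in WT, neither called. For AT1G56220 the HL minus LL differences were -3.33 in sap3 and -3.28 in WT, and for AT5G11070 they were -1.99 and -1.14.

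Between the pools labelled cml49 and WT, 1 of 72 (1.39%) differed by at least 1 in LL, where 1.3% of all probe sets did, and 2 of 72 (2.78%) in HL, where 1.07% did. All 3 were lower in the pool labelled cml49, as were 0.549% of all probe sets in LL and 0.687% in HL, while 0.753% and 0.387% were higher. In LL this was IAA14, with 5.02 in the pool labelled cml49 and 6.02 in the WT pool. In HL they were NAC105, with 2.98 and 4.05, and NAC101, with 2.06 and 3.06.

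The genes that make, break and relay the hormone were read as background to these responses, in 4 lists that hold DWF4, BAS1 and PRE1 as well. They are given for the averaged HL minus LL comparison of the 9 arrays, in which 15.1% of all probe sets were called. Of 10 synthesis genes, 1 rose and 1 fell. CPD, a cytochrome P450 of an early step whose transcript brassinosteroids lower, read 7.88 and 8.33 in sap3 HL replicates 1 and 2 and 8.18 and 8.06 in WT HL replicates 1 and 3, against 9.26 and 9.34 in sap3 LL replicates 1 and 3 and 9.06, 9.51 and 9.24 in WT LL. CPD differed by -1.17 ± 0.14 (SE, limma adjusted p = 0.000217), and STE1, a sterol desaturase upstream of the hormone, by 0.52 ± 0.11 (limma adjusted p = 0.00795). BR6OX1 and BR6OX2, which catalyse the last steps, were not called (-0.41 and -0.29, limma adjusted p = 0.17 and 0.142).

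Of 7 genes for inactivation, 1 rose and 1 fell, and without dim probe sets 3 of the 7 remained, of which 1 was called. UGT73C5, a glucosyltransferase that inactivates brassinosteroids and also acts on foreign compounds, read 8.59 and 9.22 in sap3 HL replicates 1 and 2 and 8.53 and 8.46 in WT HL replicates 1 and 3, against 4.49 and 5.09 in sap3 LL replicates 1 and 3 and 4.54, 4.60 and 4.74 in WT LL. UGT73C5 differed by 3.99 ± 0.16 (SE, limma adjusted p = 3e-07), a larger size than that of any of the 72 probe sets, and by 1.91 ± 1.02 with 12 arrays (limma adjusted p = 0.619). CYP72C1, a cytochrome P450 that lowers hormone levels, fell by 0.77 ± 0.10 (SE, limma adjusted p = 0.00057). The reductase BEN1 and the acyltransferase BAT1 were not called (0.18 and -0.31).

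Of 17 receptor and relay genes, 0 rose and 4 fell, the GSK3-like kinases BIN2, ATSK23 and ATSK22 and the methyltransferase SBI1, which acts on the phosphatase that ends BRI1 signalling. BIN2 read 9.58 and 9.71 in sap3 HL replicates 1 and 2 and 9.81 and 9.56 in WT HL replicates 1 and 3, against 10.91 and 10.70 in sap3 LL replicates 1 and 3 and 10.86, 10.97 and 10.88 in WT LL. BIN2 differed by -1.19 ± 0.11 (SE, limma adjusted p = 4.44e-05), ATSK23 by -0.52, ATSK22 by -0.43 and SBI1 by -0.36. Fits that left out 1 array kept between 1 and 4 of these calls: BIN2 was called in all 9, ATSK23 was lost without WT HL replicate 1, ATSK22 was lost in 4 of the 9 (without sap3 HL replicate 2, sap3 LL replicate 3, WT HL replicate 1 or WT HL replicate 3), with a limma adjusted p up to 0.0731, and SBI1 was lost in 8 of the 9, all except that without WT LL replicate 3, with a limma adjusted p up to 0.114, and also with a replicate block (0.0615).

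Of 18 transcription factors of the pathway, 5 rose and 7 fell. HBI1, a bHLH factor that promotes growth, fell by 1.87 ± 0.11 (SE, limma adjusted p = 3.22e-06), with 6.35 and 6.74 in sap3 HL replicates 1 and 2 and 6.73 and 6.78 in WT HL replicates 1 and 3, against 8.42 and 8.61 in sap3 LL replicates 1 and 3 and 8.49, 8.55 and 8.53 in WT LL. MYBL2, a repressor that is a target of BIN2, fell by 1.97 ± 0.17 (limma adjusted p = 3.6e-05), and the bHLH factor BEE2 by 1.24 ± 0.12 (limma adjusted p = 7.33e-05). BIM1, a bHLH partner of BES1, rose by 1.16 ± 0.10 (SE, limma adjusted p = 3.12e-05). With all 12 arrays none of the pathway genes named here passed, each at a limma adjusted p of 0.619 or more.

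**Figure D3:**
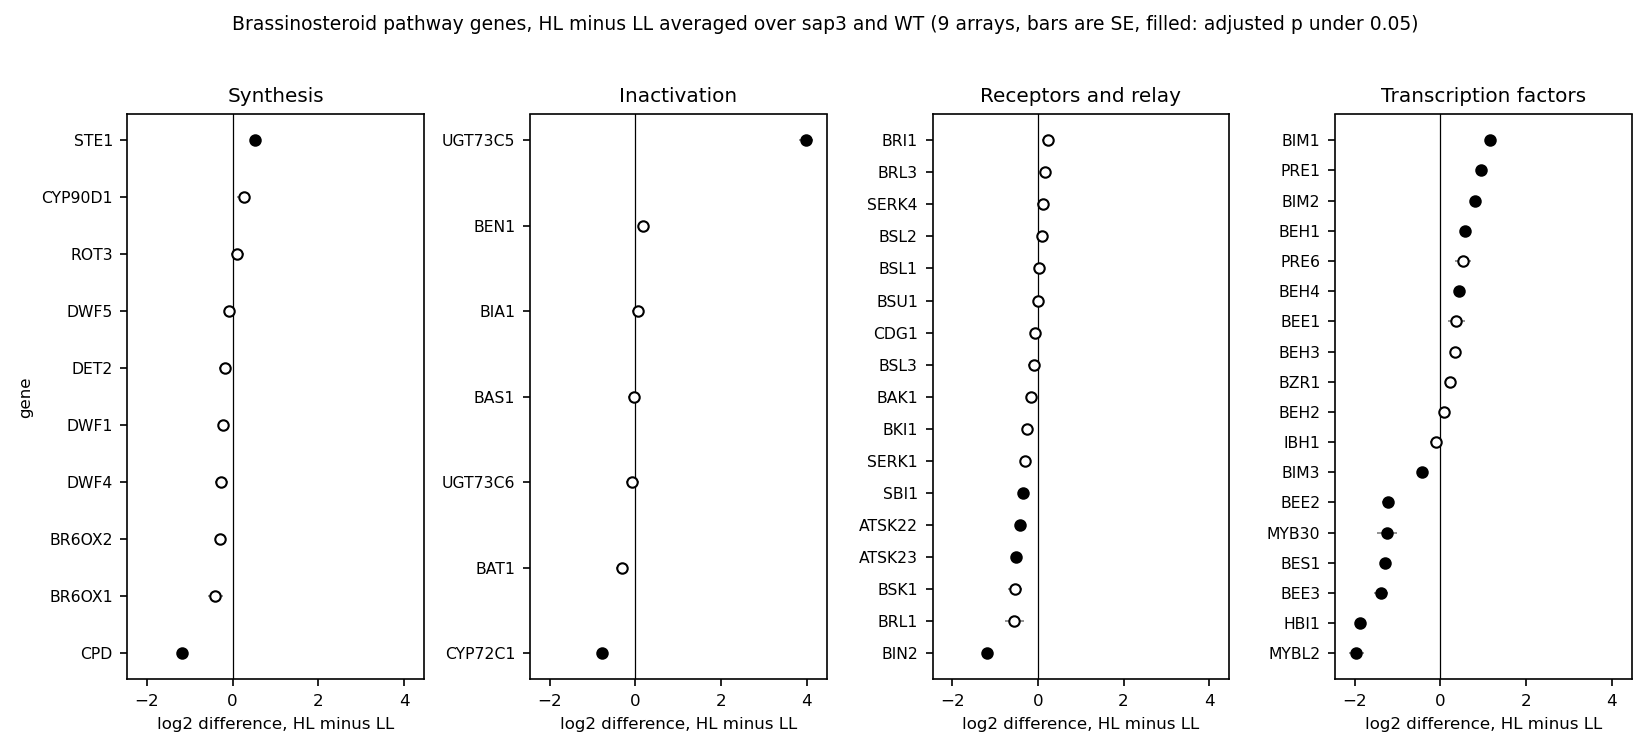
HL minus LL differences in log2 units, averaged over sap3 and WT in the 9 arrays, for 4 lists of brassinosteroid pathway genes, with SE bars. Filled points passed the limma test, and UGT73C5 stands furthest from zero at 3.99.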

How the data were processed

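Whole rosettes were measured on 16 arrays, 12 of single replicates and 4 of pools. Per the submitters' processing notes, RMA and Affymetrix Expression Console were used by the authors to make the deposited log2 values; their version, library files and genome build are not given in the sources used here. Coordinates, Gene Ontology terms and evidence come from the authors' annotation workbook, whose 16 signal columns could not be matched to samples and were not used. Of 28501 probe sets, 28403 main ones were analysed. All 72 members matched the RefSeq gene table used for symbols.

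The 4 group means of the single arrays were fitted with limma 3.58.1 in R 4.3.3 (lmFit and eBayes, two-sided), with Benjamini-Hochberg adjustment over all main probe sets and calls at an adjusted p under 0.05. This was done for 12 arrays as labelled and for 9 without the 3 arrays shown apart. Pools were compared by log2 difference, with a size of at least 1. Arrays have no read depth, and what limits precision was not tested. The labels give 15 plants per single replicate and call the pooled replicates independent biological ones; of the single replicates they give only a number, so p-values measure the spread between these arrays. The fit was tested on simulated data before use.

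Values in every array are given for the 14 loci with the largest mean pool difference and for any member called between genotypes, of which there were 0. Of each pathway list, up to 4 loci outside the members with the smallest p are named. A locus with several probe sets is shown by the brighter one. The members, the lists and the arrays shown apart were chosen with earlier results of these data known. Replicate numbers are shared between groups, and the main fit held no replicate term. Deviations of same-numbered arrays correlated between -0.041 and 0.081 over the 9 arrays. So few arrays per group cannot decide whether the numbers pair the arrays. Alternatives were other priors, array weights, a replicate block, a second quantile normalisation, a filter on dim probe sets and leaving out each array.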

Additional observations from a re-analysis of the deposited data

How the results depend on the processing

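The counts of called members for HL against LL were 0 in all 3 comparisons with 12 arrays, and 21 in sap3, 21 in WT and 31 averaged over both without the 3 arrays shown apart, while the counts for sap3 against WT and for the difference of the light response stayed at 0 in both fits and under every alternative. Within the 9 arrays, leaving out 1 array gave 14 to 22 calls in sap3, 10 to 24 in WT and 24 to 29 averaged. The other settings (prior depending on the mean, robust prior, array weights, replicate block, second quantile normalisation, no dim probe sets) gave 17 to 22, 17 to 24 and 26 to 33. A replicate block gave 17 calls in sap3, 17 in WT and 28 averaged with 9 arrays and 0 with 12. Same-numbered arrays correlated in their deviations between -0.633 and 0.527 over 12 arrays, which include the 3 shown apart. Over 9 arrays they correlated between -0.041 and 0.081. With so few arrays per group, this check cannot decide whether the numbers pair the arrays. Between pools, a size of at least 1.5 left 7 members for the pools labelled cml49 and 8 for the WT pools in HL minus LL, and 0 for cml49 minus WT in LL and 0 in HL. A second quantile normalisation left 1 member for cml49 minus WT in HL, and without dim probe sets, which removes members from the count, 12 remained for HL minus LL in the pools labelled cml49 and 0 for cml49 minus WT in HL. By role in the averaged comparison of the 9 arrays, the calls among brassinosteroid metabolism and signalling genes were 3, and 5 with a prior that depends on the mean; those among the THE1 and HERK kinases were 2, 1 with array weights or a replicate block and 0 to 2 with 1 array left out; those among the other transcription regulators were 5, and 2 without dim probe sets; and those among inactivation genes were 2, and 1 without dim probe sets. With 1 array left out, the other kinases gave 1 to 2 calls, the receptor and relay genes 1 to 4 and the NAC factors 0 to 1 (1 without WT LL replicate 2). The replicate block ended the calls of HERK2, AT2G32090, BZS1 and SBI1. Under all alternatives, 989 values stayed the same: single genes kept their direction and side of the threshold, and counts stayed within 1.5 times. A further 66 values of single genes lost a call and 34 counts moved by over 1.5 times. Of the single genes, 0 turned their direction.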

Other observations

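Other transcription factors of the brassinosteroid pathway, picked out after their values were seen, are given here for the averaged HL minus LL comparison of the 9 arrays. BES1, which the hormone activates, fell by 1.28 ± 0.14 (SE, limma adjusted p = 0.000139), with 6.42 and 6.70 in sap3 HL replicates 1 and 2 and 6.66 and 6.90 in WT HL replicates 1 and 3, against 8.11 and 7.68 in sap3 LL replicates 1 and 3 and 8.23, 7.88 and 7.92 in WT LL. Its closest relative BZR1 was not called (0.23 ± 0.12, limma adjusted p = 0.278), and BEH1 rose by 0.56 ± 0.09 (limma adjusted p = 0.00232). Whether BES1 and BZR1, or BEE3 and BEE1, differ was not tested. BEE3, a bHLH factor induced by the hormone, fell by 1.38 ± 0.16 (limma adjusted p = 0.00026), and BEE1 was not called. In the pools BES1 read 6.96 and 6.64 in HL and 7.96 and 7.57 in LL, for the pools labelled cml49 and WT in each light.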
